A study of Homo sapiens with 46 samples.

Results

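The genes described here are 37 genes of the kinetochore, the spindle assembly checkpoint and the chromosomal passenger complex, chosen by name out of 60668 gene identifiers in the deposited count tables. All 37 were matched by symbol, and all 37 passed the filter on low counts in every experiment. By role, the list holds 14 genes of the centromere and inner kinetochore, 7 of the outer kinetochore, 4 of the corona, 5 of the checkpoint, 3 of the SKA complex and 4 of the passenger complex. Splicing events were taken where the gene field of the event named one of the 37.

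The kinetochore is the protein assembly that joins a chromosome to the spindle in mitosis. Its inner layer sits on chromatin that carries the histone variant CENP-A, and its outer layer, the KMN network of KNL1, the MIS12 complex and the NDC80 complex, binds microtubules. A kinetochore that is not attached recruits the kinases TTK and BUB1 and the proteins BUB1B, BUB3 and MAD2L1, which hold back anaphase, while the passenger complex with the kinase AURKB releases faulty attachments. Many of these genes are transcribed mainly in G2 and M phase of dividing cells.

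The study treated cells with ASO-1570, an antisense oligonucleotide against the splicing factor gene TRA2B, or with the control oligonucleotide ASO-CTL, each for 48 h with a lipofectamine reagent. MDA-MB231, a breast carcinoma cell line, and U87MG, a glioblastoma cell line, received 200 nM in one experiment and 50 nM in another. Both lines also received 10 nM of siRNA-TRA2B or siRNA-CTL for 48 h in an experiment of their own. In the PDX experiment, tumours grown in mice from a breast cancer patient (PDX) were injected with 50 mg/kg of ASO-1570 or ASO-CTL 3 times a week for 4 weeks, and the labels call these mice immunocompetent. Each of the 12 cell line groups held 3 libraries and each PDX group 5 tumours, 46 samples in all. No label says that the libraries of a cell line group came from separate cultures, so p-values measure only the spread between these libraries, which may be technical. For cell type, 12 MDA-MB231 samples (those given 50 nM oligonucleotide or siRNA) are labelled glioblastoma; here the cell line label was followed.

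Total counts per library ranged from 259885034 to 356831838 at 200 nM, from 74978304 to 112813820 at 50 nM or with siRNA, and from 75338390 to 109589376 for tumours. Levels are given as CPM, the counts of a gene scaled to a fixed library total, after TMM scaling. TRA2B, the targeted gene, measured 104 to 116 CPM with ASO-1570 against 192 to 206 CPM with ASO-CTL in MDA-MB231 and 75.7 to 77.5 CPM with ASO-1570 against 151 to 161 CPM with ASO-CTL in U87MG cells at 200 nM. At 50 nM it measured 119 to 147 CPM with ASO-1570 against 215 to 225 CPM with ASO-CTL in MDA-MB231 cells and 74.2 to 79.4 CPM with ASO-1570 against 162 to 169 CPM with ASO-CTL in U87MG cells. With siRNA it measured 21.4 to 22.7 CPM with siRNA-TRA2B against 186 to 196 CPM with siRNA-CTL in MDA-MB231 cells and 22.2 to 28.1 CPM with siRNA-TRA2B against 174 to 186 CPM with siRNA-CTL in U87MG cells. TRA2B fell in these 6 comparisons (log2 changes from -3.11 to -0.76), but in the tumours it measured 77.7 to 114 CPM with ASO-1570 against 78.3 to 130.1 CPM with ASO-CTL, with an adjusted p of 0.707. EPCAM, an epithelial gene, averaged 28.97 to 36.6 CPM in the MDA-MB231 groups the 4 with the glioblastoma label included, and 0.41 to 0.67 CPM in the U87MG groups. The glial gene OLIG2 averaged at most 0.004 CPM in MDA-MB231 groups and 1.85 to 3.23 CPM in U87MG groups. GFAP, which defines astrocytes, averaged 1.26 to 3.23 CPM in MDA-MB231 groups and 0.06 to 1.71 CPM in U87MG groups, low in the glioblastoma line too. Among the other glial and neural markers, AQP4, S100B and SOX2 averaged below 1 CPM in every group of both lines. NES averaged 14.4 to 36.4 CPM in MDA-MB231 and 12.5 to 43.4 CPM in U87MG groups, and PDGFRA averaged below 1 CPM in MDA-MB231 groups only. Most of these markers therefore did not set U87MG apart. Immune markers summed to 10.1 ± 4.06 CPM with ASO-1570 and 11.8 ± 3.73 CPM with ASO-CTL in the tumours (SD, n = 5 each). CD14 made up 7.13 and 8.79 CPM of these sums. The immune gene PTPRC and the endothelial gene PECAM1 averaged below 0.3 CPM in both PDX groups. The tumours grew in mice and the counts are of human genes, so these values do not measure cells of the mouse host.

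ASO-1570 lowered most of the 37 genes in both cell lines at both doses. In MDA-MB231 cells 29 fell and 1 rose at 200 nM, where 13.6% of all genes tested fell and 11.7% rose. In U87MG cells 31 fell and 3 rose at 200 nM, against 23.9% falling and 25.8% rising among all genes tested. At 50 nM, 32 fell and 1 rose in MDA-MB231 cells, against 13.2% and 10.1% of all genes, and 32 fell and 1 rose in U87MG cells, against 26.7% and 27.9%. A gene is said to rise or fall here when its adjusted p was below 0.05 in edgeR's quasi-likelihood test with Benjamini-Hochberg adjustment over all genes tested. In bulk samples fewer cells of a type, such as dividing cells, and less RNA per cell cannot be told apart.

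The median log2 change over the 37 genes was -0.48 in MDA-MB231 and -0.96 in U87MG cells at 200 nM, and -0.39 in MDA-MB231 and -0.93 in U87MG cells at 50 nM. Over all genes tested the medians lay between 0.00 and 0.02. The libraries of the groups did not overlap for 32 of the 37 genes in MDA-MB231 and 36 in U87MG cells at 200 nM, and for 35 and 33 in the same lines at 50 nM. Of all genes tested, 39.3%, 66.5%, 41.2% and 62% had groups without overlap in those 4 comparisons, and 25.2%, 49.7%, 23.3% and 54.6% were called in either direction.

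The median log2 CPM of the 37 genes per library was 5.21, 4.86 and 5.37 with ASO-1570 in MDA-MB231 cells at 200 nM, against 5.66, 5.75 and 5.64 with ASO-CTL. In U87MG cells at 200 nM it was 4.90, 4.50 and 4.74 with ASO-1570, against 5.37, 5.50 and 5.48 with ASO-CTL. Replicate 2 was the lowest ASO-1570 library in both lines, and every ASO-1570 library lay below the lowest ASO-CTL library of its line.

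Of the 37 genes, 25 fell in all 4 of these comparisons. The share of all genes that fell in all 4 was not counted. It cannot exceed the 13.2% of genes tested at 50 nM that fell in MDA-MB231 cells at that dose. CENPL, CENPM, CENPN, SKA2 and ZWILCH fell in 3, CENPP, CENPW, MIS12 and NSL1 in 2, and CENPT in 1. The remaining 2 did not fall in any: CENPU rose in all 4, and CENPC rose in U87MG cells at 200 nM (log2 change 0.31) and was called in no other comparison. The heat map of log2 changes gives each gene in each comparison.

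**Figure D1:**
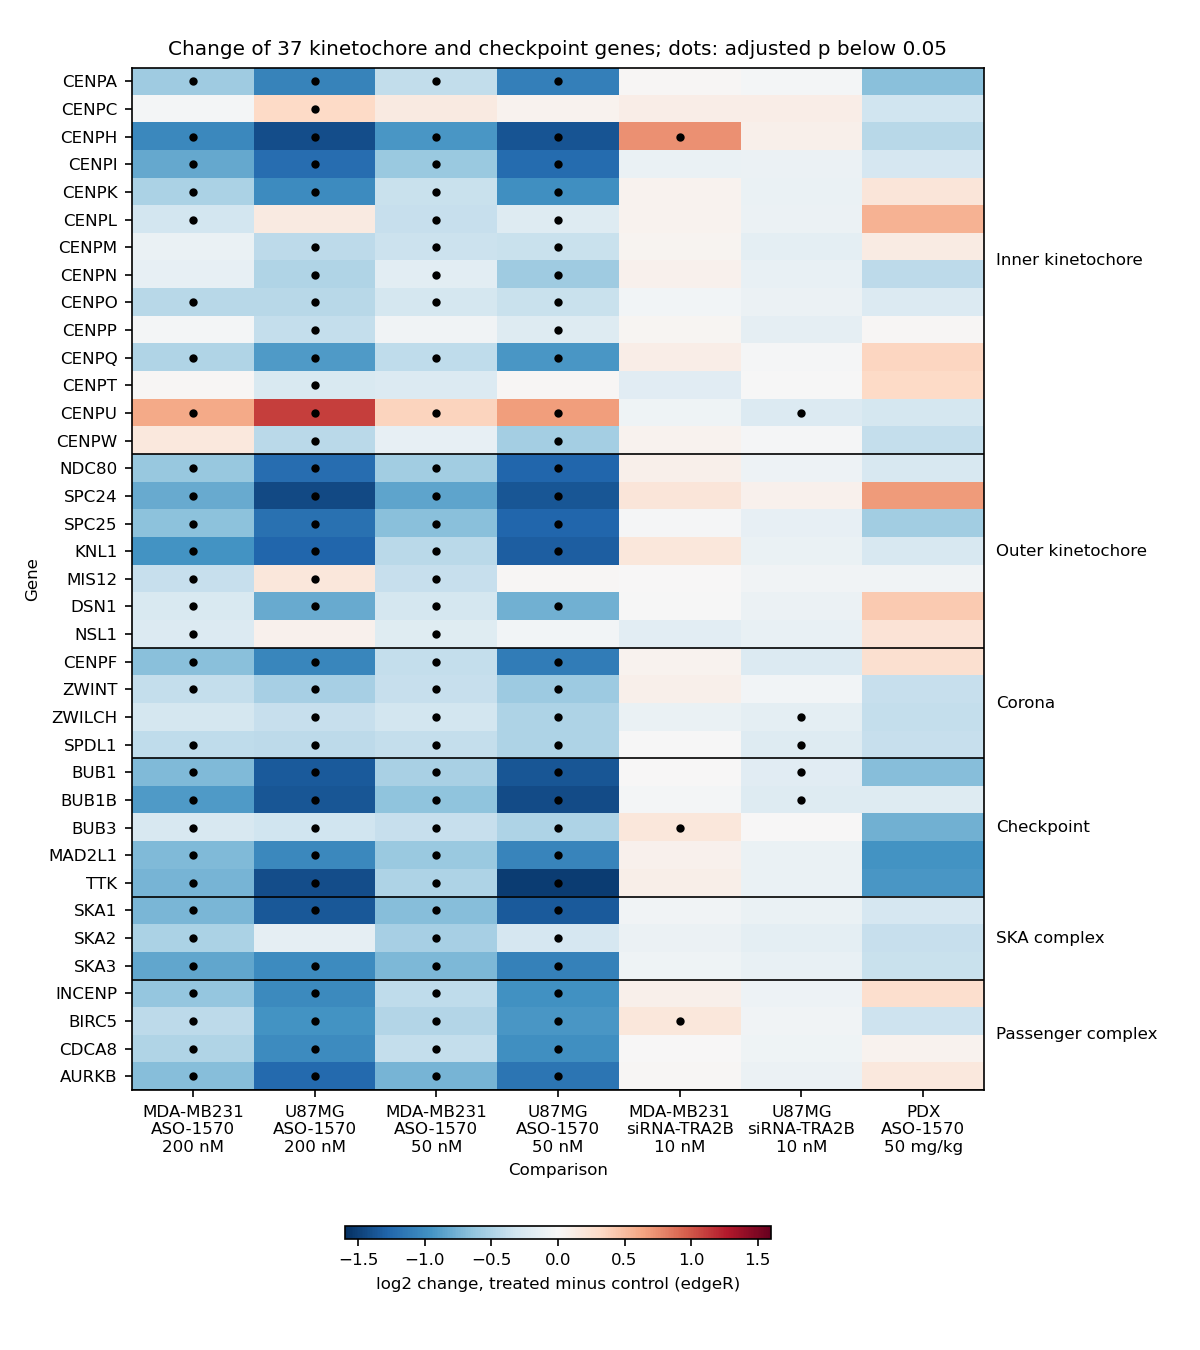
Log2 change of each of the 37 genes (rows, grouped by role) in 7 comparisons (columns), treated minus control, with a dot where the adjusted p was below 0.05. The oligonucleotide columns of the cell lines hold mostly negative values with CENPU positive in all 4, the siRNA columns hold values near 0 except CENPH in MDA-MB231 cells, and the tumour column has no dot.

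Among the genes with a level per length, the lowest in control cells was CENPP, at 1.46 CPM per kb in MDA-MB231 and 1.55 CPM per kb in U87MG cells of the 200 nM experiment. The highest was CDCA8 in MDA-MB231 cells, at 54.0 CPM per kb, and ZWINT in U87MG cells, at 44.7 CPM per kb. In ASO-CTL tumours CENPC was the lowest at 0.65 CPM per kb and CENPW the highest at 26.9 CPM per kb.

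Promoters of these genes were searched for letters known from cell cycle promoters. TTTGAA and TTTAAA are forms of the cell cycle genes homology region, to which the DREAM and MuvB complexes bind, and CCAAT is the letters of the CCAAT box, which NF-Y binds. The windows ran from 250 bases before to 50 bases after each RefSeq gene start (build GRCh38.p14) and were searched on both strands. Of 36 windows of 30 member genes, 16 (44.4%) held TTTGAA, against 15.2% of 35116 windows of all genes. CCAAT was in 24 of the 36 (66.7%), against 34.6% of all windows, and TTTAAA was in 2 (5.56%), against 12.2%. A match describes the letters of a window and is not a measured binding site. CENPH, CENPL, CENPM, KNL1, BUB3, TTK and BIRC5 had no window in the table used.

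The 140 bases before the start are shown for the 6 genes with a TTTGAA wholly within the 30 bases before the start, and for CENPU, which rose in all 4 oligonucleotide comparisons. The TTTGAA of NDC80, SKA3 and SPC25 runs across the start and those of CENPN and MAD2L1 begin after it, within 30 bases, so these are not shown. CENPN fell in 3 of the 4 comparisons and the other 10 of these genes, the 6 shown included, fell in all 4. Of all 37 genes, 25 fell in all 4. CENPC held TTTGAA too, on the other strand from 90 bases before the start, and did not fall in any. AURKB, BUB1, CENPI, CENPK, CENPQ, DSN1 and SPC24 had windows without TTTGAA and fell in all 4. A relation of the letters to the changes was not tested. Capitals mark TTTGAA and its reverse complement, which reads TTCAAA, as well as TTTAAA. They also mark CCAAT and its reverse complement, which reads ATTGG. In CDCA8 the last TTTGAA and ATTGG share bases. The windows are BUB1B chr15:40160929-40161068 (plus strand), CDCA8 chr1:37692376-37692515 (plus), CENPA chr2:26785916-26786055 (plus), INCENP chr11:62123871-62124010 (plus), SPDL1 chr5:169583633-169583772 (plus), ZWINT chr10:56361274-56361413 (minus) and CENPU chr4:184734097-184734236 (minus).
BUB1B: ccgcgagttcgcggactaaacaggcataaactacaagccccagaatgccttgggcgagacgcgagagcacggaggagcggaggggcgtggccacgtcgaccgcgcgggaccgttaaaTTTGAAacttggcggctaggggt
CDCA8: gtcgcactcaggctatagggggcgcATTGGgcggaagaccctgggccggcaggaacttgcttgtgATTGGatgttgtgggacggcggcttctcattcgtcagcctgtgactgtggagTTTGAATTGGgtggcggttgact
CENPA: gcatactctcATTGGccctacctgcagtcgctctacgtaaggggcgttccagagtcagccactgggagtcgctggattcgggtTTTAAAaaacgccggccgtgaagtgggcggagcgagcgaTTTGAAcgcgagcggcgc
INCENP: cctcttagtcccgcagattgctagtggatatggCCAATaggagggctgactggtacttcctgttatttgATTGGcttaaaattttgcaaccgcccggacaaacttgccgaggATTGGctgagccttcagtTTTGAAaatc
SPDL1: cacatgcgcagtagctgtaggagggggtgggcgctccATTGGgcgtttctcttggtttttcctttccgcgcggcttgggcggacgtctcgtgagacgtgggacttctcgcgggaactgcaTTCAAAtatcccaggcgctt
ZWINT: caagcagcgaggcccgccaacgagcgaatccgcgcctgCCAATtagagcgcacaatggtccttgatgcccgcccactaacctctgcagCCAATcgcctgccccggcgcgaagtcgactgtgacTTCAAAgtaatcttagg
CENPU: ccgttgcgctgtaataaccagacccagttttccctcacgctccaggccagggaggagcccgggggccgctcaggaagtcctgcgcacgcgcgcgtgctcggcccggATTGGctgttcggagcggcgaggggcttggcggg
The TTTGAA letters began 23 bases before the start in BUB1B and CDCA8, 18 in CENPA, 10 in INCENP, 20 in SPDL1 and 17 in ZWINT. The stretch of CENPU held 1 copy of ATTGG and no TTTGAA, INCENP and CDCA8 held 3 copies each of CCAAT on either strand, ZWINT 2, CENPA and SPDL1 1 each, and BUB1B none.

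In the centromere and inner kinetochore, 7 of 14 genes fell and 1 rose in MDA-MB231 cells at 200 nM (median log2 change -0.21), and 11 fell and 2 rose in U87MG cells (median -0.44). At 50 nM 9 fell and 1 rose in MDA-MB231 cells (median -0.32) and 11 fell and 1 rose in U87MG cells (median -0.45). CENPA, the histone variant that marks the centromere, fell in all 4, with log2 changes of -0.57 in MDA-MB231 and -1.06 in U87MG cells at 200 nM and of -0.39 and -1.09 in the same lines at 50 nM. CENPA shares 138 exon bases with SLC35F6 on the same strand, whose log2 changes at 200 nM were -0.17 and -0.16 in these lines, neither called.

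CENPH, CENPI and CENPK are subunits of one module of the inner kinetochore, and all 3 fell in all 4 comparisons. CENPH measured 7.59, 8.69 and 9.58 CPM in ASO-1570 libraries, against 18.1, 18.9 and 16.0 CPM in ASO-CTL libraries in MDA-MB231 cells at 200 nM (log2 change -1.04, SE 0.13, adjusted p = 0.000191). U87MG cells at that dose had 24.6, 17.0 and 20.4 CPM in ASO-1570 libraries, against 53.6, 56.5 and 56.0 CPM in ASO-CTL libraries (log2 change -1.42, SE 0.13, adjusted p = 3.72e-06). Every ASO-1570 library lay below every ASO-CTL library in both lines. At 50 nM it averaged 7.89 ± 1.24 CPM with ASO-1570 and 15.0 ± 1.601 CPM with ASO-CTL (SD, n = 3 each) in MDA-MB231 cells (log2 change -0.93, SE 0.16, adjusted p = 0.0015). In U87MG cells at 50 nM it averaged 19.3 ± 4.33 CPM with ASO-1570 and 50.0 ± 2.89 CPM with ASO-CTL (SD, n = 3 each) (log2 change -1.38, SE 0.16, adjusted p = 2.11e-05). The control level of CENPH was lower in MDA-MB231 than in U87MG cells at both doses, and the fall was seen in both.

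CENPI measured 20.2, 16.1 and 23.7 CPM in ASO-1570 libraries, against 35.5, 36.0 and 34.6 CPM in ASO-CTL libraries in MDA-MB231 cells at 200 nM (log2 change -0.82, SE 0.15, adjusted p = 0.00239). The U87MG values of CENPI at 200 nM were 10.7, 7.19 and 9.30 CPM in ASO-1570 libraries, against 18.9, 22.9 and 21.2 CPM in ASO-CTL libraries (log2 change -1.21, SE 0.15, adjusted p = 4.46e-05). No libraries of the groups overlapped, and the 50 nM log2 changes of CENPI were -0.59 (adjusted p = 0.006) in MDA-MB231 and -1.23 (adjusted p = 1.24e-05) in U87MG cells. CENPK had 24.8, 20.9 and 28.4 CPM in ASO-1570 libraries, against 35.2, 37.9 and 31.9 CPM in ASO-CTL libraries in MDA-MB231 cells at 200 nM (log2 change -0.50, SE 0.12, adjusted p = 0.00758). Its U87MG values were 22.2, 17.5 and 20.1 CPM in ASO-1570 libraries, against 40.1, 41.5 and 38.5 CPM in ASO-CTL libraries (log2 change -1.004, SE 0.12, adjusted p = 2.24e-05). The groups of CENPK did not overlap in either line, and at 50 nM its log2 changes were -0.36 (adjusted p = 0.00239) in MDA-MB231 and -0.98 (adjusted p = 8.38e-07) in U87MG cells.

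CENPO and CENPQ belong with CENPP and CENPU to another module. CENPQ had log2 changes of -0.48 in MDA-MB231 and -0.90 in U87MG cells at 200 nM and of -0.40 and -0.93 in these lines at 50 nM, all falls. CENPO had -0.45 and -0.44 at 200 nM and -0.29 and -0.35 at 50 nM, also all falls. CENPO shares 1488 bases, 27.0% of its exon length, with ADCY3 on the opposite strand, and ADCY3 had 70.5% of the counts of CENPO. ADCY3 also fell in all 4 comparisons, with log2 changes of -0.43 in MDA-MB231 and -0.94 in U87MG cells at 200 nM and of -0.30 and -0.83 in these lines at 50 nM. CENPN, CENPP, CENPT, MIS12 and ZWILCH, among others, share exon bases with other genes on the opposite strand, and the part of such bases in the values was not tested.

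CENPN binds the CENP-A nucleosome. It measured 55.7, 55.1 and 56.3 CPM in ASO-1570 libraries, against 61.2, 62.9 and 58.1 CPM in ASO-CTL libraries in MDA-MB231 cells at 200 nM (log2 change -0.13, SE 0.06, adjusted p = 0.158). U87MG cells gave 43.5, 39.0 and 39.3 CPM in ASO-1570 libraries, against 56.2, 58.1 and 55.1 CPM in ASO-CTL libraries (log2 change -0.48, SE 0.06, adjusted p = 4.74e-05). The groups did not overlap in either line, but the MDA-MB231 groups lay close together and were not called. The fall of CENPN in MDA-MB231 cells at 50 nM, -0.17 (adjusted p = 0.0112), was not called without ASO-CTL replicate 1 (log2 change -0.14) or with upper-quartile scaling (-0.12).

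CENPT links centromeric DNA to the outer kinetochore. It measured 28.7, 29.7 and 26.7 CPM in ASO-1570 libraries, against 28.0, 28.1 and 27.6 CPM in ASO-CTL libraries in MDA-MB231 cells at 200 nM (log2 change 0.02, SE 0.08, adjusted p = 0.886). U87MG cells had 22.4, 20.02 and 21.4 CPM in ASO-1570 libraries, against 26.6, 22.7 and 26.2 CPM in ASO-CTL libraries (log2 change -0.24, SE 0.08, adjusted p = 0.0179). The groups overlapped in MDA-MB231 cells, and in U87MG cells the call was lost without ASO-1570 replicate 2 (log2 change -0.20) or ASO-CTL replicate 1 (-0.21) and with upper-quartile scaling (-0.06). At 50 nM the log2 changes of CENPT were -0.22 (adjusted p = 0.056) in MDA-MB231 and 0.02 (adjusted p = 0.886) in U87MG cells. CENPC, the scaffold of the inner kinetochore, had log2 changes of -0.03 in MDA-MB231 cells at 200 nM and of 0.15 and 0.06 in MDA-MB231 and U87MG cells at 50 nM, none called.

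CENPU, a subunit of the inner kinetochore that recruits the kinase PLK1, went the other way. It measured 66.8, 68.2 and 68.9 CPM in ASO-1570 libraries, against 40.7, 43.4 and 49.4 CPM in ASO-CTL libraries in MDA-MB231 cells at 200 nM, a fold of 1.53 (log2 change 0.61, SE 0.09, adjusted p = 0.000682). The U87MG values were 39.2, 34.8 and 37.6 CPM in ASO-1570 libraries, against 19.1, 17.6 and 15.3 CPM in ASO-CTL libraries, a fold of 2.15 (log2 change 1.10, SE 0.09, adjusted p = 2.8e-06). All ASO-1570 libraries lay above all ASO-CTL libraries. MDA-MB231 cells at 50 nM had 76.5, 75.8 and 77.7 CPM in ASO-1570 libraries, against 56.6, 57.5 and 65.0 CPM in ASO-CTL libraries (log2 change 0.36, SE 0.06, adjusted p = 0.00118). U87MG cells at 50 nM had 39.5, 38.2 and 41.2 CPM in ASO-1570 libraries, against 25.1, 25.9 and 23.5 CPM in ASO-CTL libraries (log2 change 0.67, SE 0.06, adjusted p = 3.93e-06). Again the groups did not overlap. CENPU shares 346 bases, 11.7% of its exon length, with PRIMPOL on the opposite strand, and the strand setting used in counting is not given in the sources used here. PRIMPOL had 30.1% of the counts of CENPU. It fell in all 4 comparisons, with log2 changes of -0.52 in MDA-MB231 and -0.56 in U87MG cells at 200 nM and of -0.43 and -0.55 in these lines at 50 nM.

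**Figure D2:**
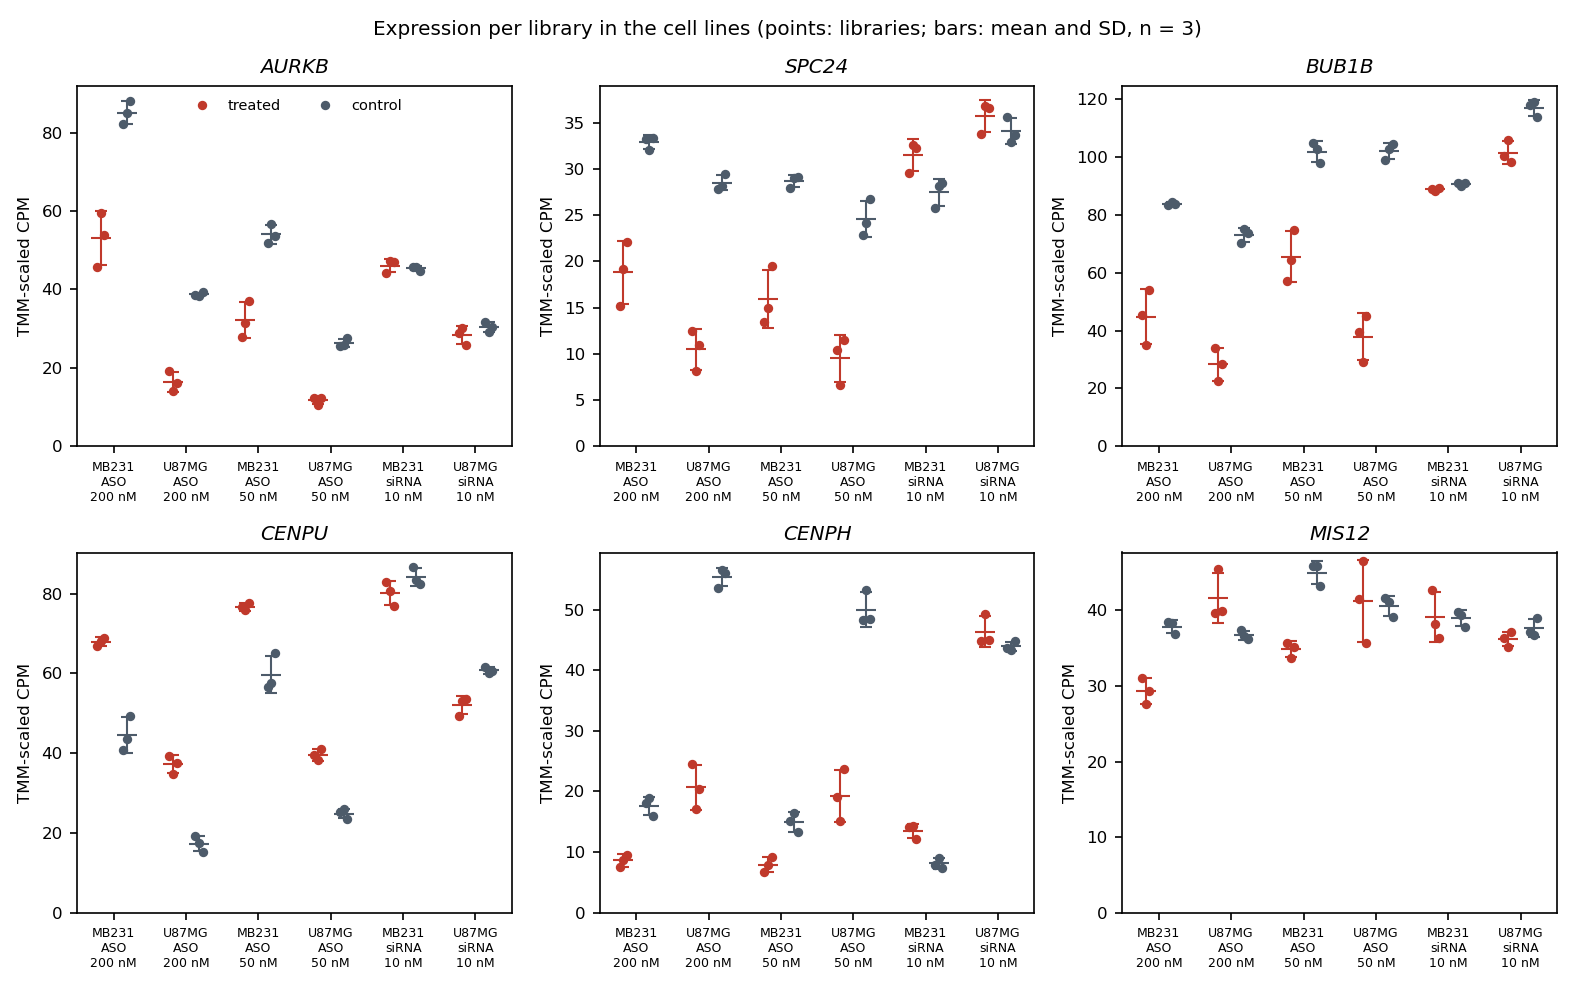
TMM-scaled CPM per library (vertical axes) of AURKB, SPC24, BUB1B, CENPU, CENPH and MIS12 in the cell line experiments, with treated libraries to the left of their controls; points are libraries, and bars are the mean and SD of 3. At both doses of ASO-1570, CENPU lies above and AURKB, SPC24, BUB1B and CENPH lie below the controls in both lines, while MIS12 lies below them in MDA-MB231 cells alone.

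In the outer kinetochore all 7 genes fell in MDA-MB231 cells at both doses (median log2 change -0.60 at 200 nM and -0.44 at 50 nM). In U87MG cells 5 of 7 fell at each dose (medians -1.20 and -1.26), and at 200 nM MIS12 rose. NDC80, the microtubule-binding subunit that names its complex, had log2 changes of -0.60 in MDA-MB231 and -1.22 in U87MG cells at 200 nM and of -0.56 and -1.26 in these lines at 50 nM. KNL1, the scaffold that binds the checkpoint proteins, had -0.95 and -1.26 at 200 nM and -0.44 and -1.32 at 50 nM, in the same order of lines.

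SPC24 and SPC25 form the end of the NDC80 complex that binds the inner kinetochore. SPC24 measured 15.2, 19.1 and 22.1 CPM in ASO-1570 libraries, against 33.3, 32.1 and 33.4 CPM in ASO-CTL libraries in MDA-MB231 cells at 200 nM (log2 change -0.81, SE 0.15, adjusted p = 0.00231). In U87MG cells it measured 12.4, 8.09 and 10.9 CPM in ASO-1570 libraries, against 27.9, 28.2 and 29.5 CPM in ASO-CTL libraries (log2 change -1.44, SE 0.15, adjusted p = 1.09e-05). No ASO-1570 library reached the lowest ASO-CTL library. At 50 nM SPC24 averaged 16.0 ± 3.13 CPM with ASO-1570 and 28.7 ± 0.684 CPM with ASO-CTL (SD, n = 3 each) in MDA-MB231 cells (log2 change -0.85, SE 0.18, adjusted p = 0.0056). U87MG cells at 50 nM averaged 9.51 ± 2.56 CPM with ASO-1570 and 24.6 ± 1.99 CPM with ASO-CTL (SD, n = 3 each) (log2 change -1.37, SE 0.18, adjusted p = 6.94e-05).

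SPC25 had 18.6, 20.8 and 21.1 CPM in ASO-1570 libraries, against 32.1, 31.9 and 31.0 CPM in ASO-CTL libraries in MDA-MB231 cells at 200 nM (log2 change -0.65, SE 0.10, adjusted p = 0.000843). Its U87MG values were 15.8, 11.6 and 12.8 CPM in ASO-1570 libraries, against 29.8, 32.6 and 29.9 CPM in ASO-CTL libraries (log2 change -1.20, SE 0.10, adjusted p = 3.01e-06). The groups did not overlap, and the 50 nM log2 changes were -0.66 (adjusted p = 0.000939) in MDA-MB231 and -1.27 (adjusted p = 2.6e-06) in U87MG cells.

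The MIS12 complex is the hub of the outer layer. Its subunit DSN1 measured 55.1, 61.0 and 59.6 CPM in ASO-1570 libraries, against 70.5, 67.7 and 70.2 CPM in ASO-CTL libraries in MDA-MB231 cells at 200 nM (log2 change -0.25, SE 0.08, adjusted p = 0.032). Its U87MG values were 48.3, 39.0 and 42.9 CPM in ASO-1570 libraries, against 76.1, 75.9 and 75.7 CPM in ASO-CTL libraries (log2 change -0.80, SE 0.08, adjusted p = 5.53e-06). There was no overlap in either line, but the MDA-MB231 call was lost in 8 of 12 alternatives, among them leaving out ASO-1570 replicate 1 (-0.21) or ASO-CTL replicate 1 (-0.24), 2 (-0.27) or 3 (-0.24). At 50 nM the log2 changes of DSN1 were -0.28 (adjusted p = 0.0146) in MDA-MB231 cells, lost without ASO-1570 replicate 1 or ASO-CTL replicate 1 (-0.25 each), and -0.76 (adjusted p = 5.5e-06) in U87MG cells.

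MIS12 measured 31.0, 27.7 and 29.3 CPM in ASO-1570 libraries, against 38.5, 38.3 and 36.8 CPM in ASO-CTL libraries in MDA-MB231 cells at 200 nM (log2 change -0.37, SE 0.07, adjusted p = 0.00257). U87MG cells gave 39.7, 45.4 and 39.9 CPM in ASO-1570 libraries, against 37.4, 36.6 and 36.2 CPM in ASO-CTL libraries (log2 change 0.18, SE 0.07, adjusted p = 0.045). Treated libraries lay below their controls in MDA-MB231 cells and above them in U87MG cells. The rise in U87MG cells was lost in 9 of 12 alternatives, among them DESeq2 (0.15) and leaving out ASO-1570 replicate 2 (0.12) or 3 (0.21) or ASO-CTL replicate 1 (0.19), 2 (0.17) or 3 (0.07). At 50 nM the log2 changes of MIS12 were -0.37 (adjusted p = 0.00633) in MDA-MB231 and 0.02 (adjusted p = 0.84) in U87MG cells. NSL1, another subunit, had log2 changes of -0.22 and -0.19 in MDA-MB231 cells at 200 and 50 nM, both falls, and of 0.07 and -0.04 in U87MG cells, neither called.

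The corona is the outermost layer, which forms before microtubules attach. Of its 4 genes, 3 fell in MDA-MB231 cells at 200 nM and all 4 fell in U87MG cells at 200 nM and in both lines at 50 nM. CENPF, a large protein of the nuclear matrix and corona, measured 326, 306 and 382 CPM in ASO-1570 libraries, against 526, 560.0 and 522 CPM in ASO-CTL libraries in MDA-MB231 cells at 200 nM (log2 change -0.66, SE 0.09, adjusted p = 0.000469). U87MG cells had 100.1, 82.6 and 91.1 CPM in ASO-1570 libraries, against 175, 201 and 188 CPM in ASO-CTL libraries (log2 change -1.04, SE 0.09, adjusted p = 4.37e-06). None of these libraries overlapped between groups. At 50 nM the CENPF log2 changes were -0.38 (adjusted p = 0.0253) in MDA-MB231 and -1.12 (adjusted p = 7.42e-06) in U87MG cells, the first of them lost without ASO-1570 replicate 1 (-0.31) or 2 (-0.37) or ASO-CTL replicate 1 (-0.31) or 3 (-0.39).

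SPDL1, an adaptor that brings dynein to the kinetochore, measured 72.6, 74.9 and 81.6 CPM in ASO-1570 libraries, against 102, 98.8 and 102 CPM in ASO-CTL libraries in MDA-MB231 cells at 200 nM (log2 change -0.40, SE 0.07, adjusted p = 0.00137). U87MG cells had 38.3, 33.2 and 34.7 CPM in ASO-1570 libraries, against 48.3, 47.1 and 46.0 CPM in ASO-CTL libraries (log2 change -0.41, SE 0.07, adjusted p = 0.000307). The groups did not overlap, and at 50 nM the log2 changes were -0.39 (adjusted p = 0.000182) in MDA-MB231 and -0.49 (adjusted p = 6.53e-06) in U87MG cells. ZWILCH, a subunit of the RZZ complex, measured 35.9, 28.7 and 38.3 CPM in ASO-1570 libraries, against 39.4, 43.2 and 42.4 CPM in ASO-CTL libraries in MDA-MB231 cells at 200 nM (log2 change -0.28, SE 0.11, adjusted p = 0.0792). It measured 55.9, 44.8 and 48.2 CPM in ASO-1570 libraries, against 63.6, 67.7 and 60.3 CPM in ASO-CTL libraries in U87MG cells (log2 change -0.36, SE 0.11, adjusted p = 0.0146). Again the groups did not overlap, but the U87MG call was lost without ASO-1570 replicate 2 (-0.29) or 3 (-0.34) or ASO-CTL replicate 2 (-0.32) and with upper-quartile scaling (-0.18). At 50 nM ZWILCH fell in both lines, by log2 changes of -0.29 (adjusted p = 0.00151) in MDA-MB231 and -0.50 (adjusted p = 8.93e-06) in U87MG cells. ZWINT, which ties the RZZ complex to KNL1, had log2 changes of -0.38 and -0.53 in MDA-MB231 and U87MG cells at 200 nM and of -0.36 and -0.58 at 50 nM.

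All 5 checkpoint genes fell in both lines at both doses, with median log2 changes of -0.71 in MDA-MB231 and -1.34 in U87MG cells at 200 nM and of -0.51 and -1.37 in these lines at 50 nM. BUB1B, which blocks the anaphase-promoting complex, measured 45.4, 35.1 and 53.9 CPM in ASO-1570 libraries, against 83.3, 84.5 and 83.9 CPM in ASO-CTL libraries in MDA-MB231 cells at 200 nM (log2 change -0.91, SE 0.15, adjusted p = 0.00125). The U87MG values were 33.9, 22.7 and 28.3 CPM in ASO-1570 libraries, against 70.3, 75.1 and 73.8 CPM in ASO-CTL libraries (log2 change -1.37, SE 0.15, adjusted p = 1.67e-05). Replicate 2 was the lowest treated library in each line, and the groups did not overlap. At 50 nM it averaged 65.5 ± 8.79 CPM with ASO-1570 and 102 ± 3.498 CPM with ASO-CTL (SD, n = 3 each) in MDA-MB231 cells (log2 change -0.64, SE 0.13, adjusted p = 0.0046). Its U87MG average at 50 nM was 37.9 ± 8.02 CPM with ASO-1570 and 102 ± 2.82 CPM with ASO-CTL (SD, n = 3 each) (log2 change -1.43, SE 0.13, adjusted p = 5.59e-06).

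TTK is the kinase that starts checkpoint signalling. At 200 nM it measured 41.8, 28.9 and 49.9 CPM in ASO-1570 libraries, against 66.6, 71.6 and 63.5 CPM in ASO-CTL libraries in MDA-MB231 cells (log2 change -0.74, SE 0.18, adjusted p = 0.0106). Its U87MG values at 200 nM were 9.99, 6.52 and 7.92 CPM in ASO-1570 libraries, against 19.9, 23.2 and 22.5 CPM in ASO-CTL libraries (log2 change -1.42, SE 0.18, adjusted p = 5.19e-05). No treated library reached a control library. In MDA-MB231 cells at 50 nM it measured 57.0, 63.8 and 72.6 CPM in ASO-1570 libraries, against 94.2, 92.6 and 86.1 CPM in ASO-CTL libraries (log2 change -0.50, SE 0.12, adjusted p = 0.0103). The U87MG values at 50 nM were 12.8, 9.59 and 14.0 CPM in ASO-1570 libraries, against 33.7, 35.6 and 35.2 CPM in ASO-CTL libraries, so it fell by 65.2% (log2 change -1.52, SE 0.12, adjusted p = 2.19e-06). These groups did not overlap either.

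BUB3, which carries BUB1 and BUB1B to the kinetochore, measured 188, 196 and 195 CPM in ASO-1570 libraries, against 229, 239 and 224 CPM in ASO-CTL libraries in MDA-MB231 cells at 200 nM (log2 change -0.26, SE 0.06, adjusted p = 0.007). In U87MG cells BUB3 measured 145, 130.3 and 141 CPM in ASO-1570 libraries, against 170.1, 177 and 172 CPM in ASO-CTL libraries (log2 change -0.32, SE 0.06, adjusted p = 0.000699). Neither pair of groups overlapped, but with upper-quartile scaling neither was called (-0.15 in MDA-MB231 and -0.13 in U87MG cells), a scaling that moved the median of all genes by 0.098 and 0.205 in these comparisons. At 50 nM the BUB3 log2 changes were -0.37 (adjusted p = 0.000386) in MDA-MB231 and -0.50 (adjusted p = 9.35e-06) in U87MG cells. The kinase BUB1 had log2 changes of -0.71 and -1.34 in MDA-MB231 and U87MG cells at 200 nM and of -0.51 and -1.37 at 50 nM. MAD2L1, which binds CDC20, had -0.71 and -1.03 at 200 nM and -0.59 and -1.05 at 50 nM, in the same order of lines.

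The SKA complex tracks the ends of microtubules. SKA1 measured 23.6, 25.0 and 25.6 CPM in ASO-1570 libraries, against 41.8, 43.3 and 38.4 CPM in ASO-CTL libraries in MDA-MB231 cells at 200 nM (log2 change -0.73, SE 0.08, adjusted p = 0.000147). In U87MG cells it measured 19.3, 15.7 and 16.3 CPM in ASO-1570 libraries, against 41.3, 45.0 and 44.5 CPM in ASO-CTL libraries (log2 change -1.35, SE 0.09, adjusted p = 4.93e-07). The groups did not overlap in either line. At 50 nM SKA1 averaged 27.4 ± 0.555 CPM with ASO-1570 and 44.0 ± 2.64 CPM with ASO-CTL (SD, n = 3 each) in MDA-MB231 cells (log2 change -0.68, SE 0.07, adjusted p = 7.69e-05). U87MG cells at 50 nM averaged 18.2 ± 1.71 CPM with ASO-1570 and 46.1 ± 1.80 CPM with ASO-CTL (SD, n = 3 each) (log2 change -1.34, SE 0.07, adjusted p = 2.84e-07).

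SKA3 measured 29.1, 25.0 and 32.5 CPM in ASO-1570 libraries, against 50.6, 53.8 and 49.8 CPM in ASO-CTL libraries in MDA-MB231 cells at 200 nM (log2 change -0.83, SE 0.10, adjusted p = 0.000221). The U87MG values of SKA3 were 8.21, 6.49 and 7.39 CPM in ASO-1570 libraries, against 13.9, 15.5 and 15.1 CPM in ASO-CTL libraries (log2 change -1.01, SE 0.11, adjusted p = 1.07e-05). No libraries overlapped, and at 50 nM the log2 changes were -0.72 (adjusted p = 0.000102) in MDA-MB231 and -1.09 (adjusted p = 1.3e-06) in U87MG cells. SKA2, the other subunit, measured 96.5, 104 and 96.9 CPM in ASO-1570 libraries, against 145, 148 and 130.4 CPM in ASO-CTL libraries in MDA-MB231 cells at 200 nM (log2 change -0.51, SE 0.06, adjusted p = 0.000217). Its U87MG values were 82.1, 85.3 and 80.6 CPM in ASO-1570 libraries, against 90.2, 92.7 and 89.99 CPM in ASO-CTL libraries (log2 change -0.14, SE 0.06, adjusted p = 0.088). The groups of SKA2 did not overlap in either line, and the U87MG difference was not called. Its 50 nM log2 changes were -0.53 (adjusted p = 1.14e-05) in MDA-MB231 and -0.26 (adjusted p = 0.000201) in U87MG cells.

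All 4 genes of the passenger complex fell in both lines at both doses, with median log2 changes of -0.55 in MDA-MB231 and -1.01 in U87MG cells at 200 nM and of -0.44 and -0.98 in these lines at 50 nM. AURKB, its kinase, measured 45.8, 59.4 and 54.0 CPM in ASO-1570 libraries, against 82.2, 85.1 and 88.1 CPM in ASO-CTL libraries in MDA-MB231 cells at 200 nM (log2 change -0.68, SE 0.11, adjusted p = 0.00114). U87MG cells gave 19.1, 14.0 and 16.2 CPM in ASO-1570 libraries, against 38.5, 38.4 and 39.3 CPM in ASO-CTL libraries (log2 change -1.24, SE 0.11, adjusted p = 4.4e-06). Treated and control libraries did not overlap, and the 50 nM log2 changes were -0.75 (adjusted p = 0.000282) in MDA-MB231 and -1.17 (adjusted p = 2.82e-06) in U87MG cells.

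INCENP, the scaffold of the complex, measured 55.4, 41.5 and 63.8 CPM in ASO-1570 libraries, against 80.2, 86.99 and 79.5 CPM in ASO-CTL libraries in MDA-MB231 cells at 200 nM (log2 change -0.62, SE 0.13, adjusted p = 0.00447). U87MG cells had 31.8, 26.0 and 27.7 CPM in ASO-1570 libraries, against 56.1, 58.7 and 58.4 CPM in ASO-CTL libraries (log2 change -1.02, SE 0.13, adjusted p = 4.34e-05). There was no overlap, and at 50 nM the log2 changes were -0.41 (adjusted p = 0.0163) in MDA-MB231 and -0.97 (adjusted p = 1.95e-05) in U87MG cells. The first of these was lost without ASO-1570 replicate 1 (-0.33) or 2 (-0.38) or ASO-CTL replicate 3 (-0.39). BIRC5, known as survivin, which docks the complex on the centromere, measured 109, 128 and 123 CPM in ASO-1570 libraries, against 164, 159 and 158 CPM in ASO-CTL libraries in MDA-MB231 cells at 200 nM (log2 change -0.42, SE 0.10, adjusted p = 0.00975). U87MG cells had 84.0, 60.8 and 70.7 CPM in ASO-1570 libraries, against 143, 139 and 137 CPM in ASO-CTL libraries (log2 change -0.96, SE 0.10, adjusted p = 1.2e-05). These groups did not overlap either, and the 50 nM log2 changes of BIRC5 were -0.47 (adjusted p = 0.00483) in MDA-MB231 and -0.93 (adjusted p = 1.26e-05) in U87MG cells. CDCA8, known as borealin, had -0.48 and -1.001 in MDA-MB231 and U87MG cells at 200 nM and -0.38 and -0.98 at 50 nM.

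The log2 change in MDA-MB231 cells minus that in U87MG cells was tested as an interaction within each experiment. At 200 nM this difference was above 0 for 14 of the 37 genes and below 0 for 6 at an adjusted p below 0.05, against 11.5% and 12.1% of all genes tested. These 20 calls became 12 without MDA-MB231 ASO-CTL replicate 2 and 13 without MDA-MB231 ASO-CTL replicate 1, U87MG ASO-1570 replicate 3 or U87MG ASO-CTL replicate 2. Over all genes, the 6183 calls at 200 nM also moved, to between 4716 and 8082, when 1 library was left out. At 50 nM the difference was above 0 for 23 and below 0 for 3, against 14.3% and 13.9%. For a gene that fell in both lines, a value above 0 means a smaller fall in MDA-MB231 cells. The median difference over the 37 genes was 0.38 at 200 nM and 0.45 at 50 nM, and over all genes it was -0.02 and -0.00. With siRNA it was above 0 for 2 (0.402% of all genes) and below 0 for none (0.125%), with a median of 0.13. By the sign of the difference alone, 30 of the 37 genes changed more toward lower levels in U87MG cells at 200 nM and 31 at 50 nM. The difference was below 0 for the other 7 and 6, against 13420 of 26159 and 12059 of 23989 genes tested.

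SKA1 differed between the lines at both doses, by 0.62 (SE 0.12, adjusted p = 0.00322) at 200 nM and 0.66 (SE 0.10, adjusted p = 0.00099) at 50 nM. DSN1 differed by 0.56 at 200 nM (SE 0.11, adjusted p = 0.00319), and at 50 nM CENPK differed by 0.62 (SE 0.09, adjusted p = 0.000939) and CENPN by 0.40 (SE 0.06, adjusted p = 0.000704). The checkpoint kinase TTK differed by 1.03 at 50 nM (SE 0.17, adjusted p = 0.00145). MIS12 differed in the other direction, by -0.55 at 200 nM (SE 0.10, adjusted p = 0.00213) and -0.39 at 50 nM (SE 0.11, adjusted p = 0.0235). The second of these was not called without MDA-MB231 ASO-1570 replicate 2, MDA-MB231 ASO-CTL replicate 1 or 2 or U87MG ASO-CTL replicate 3 (values from -0.37 to -0.36). The rise of CENPU was smaller in MDA-MB231 cells, by -0.49 at 200 nM (SE 0.13, adjusted p = 0.0165) and -0.31 at 50 nM (SE 0.08, adjusted p = 0.0168). The difference of CENPU at 200 nM was not called without U87MG ASO-CTL replicate 3 (-0.31), nor that at 50 nM without U87MG ASO-1570 replicate 3 (-0.24). SKA2 differed by -0.37 at 200 nM (SE 0.09, adjusted p = 0.0105) and -0.26 at 50 nM (SE 0.06, adjusted p = 0.00648), and the first was not called without U87MG ASO-CTL replicate 3 (-0.26).

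**Figure D3:**
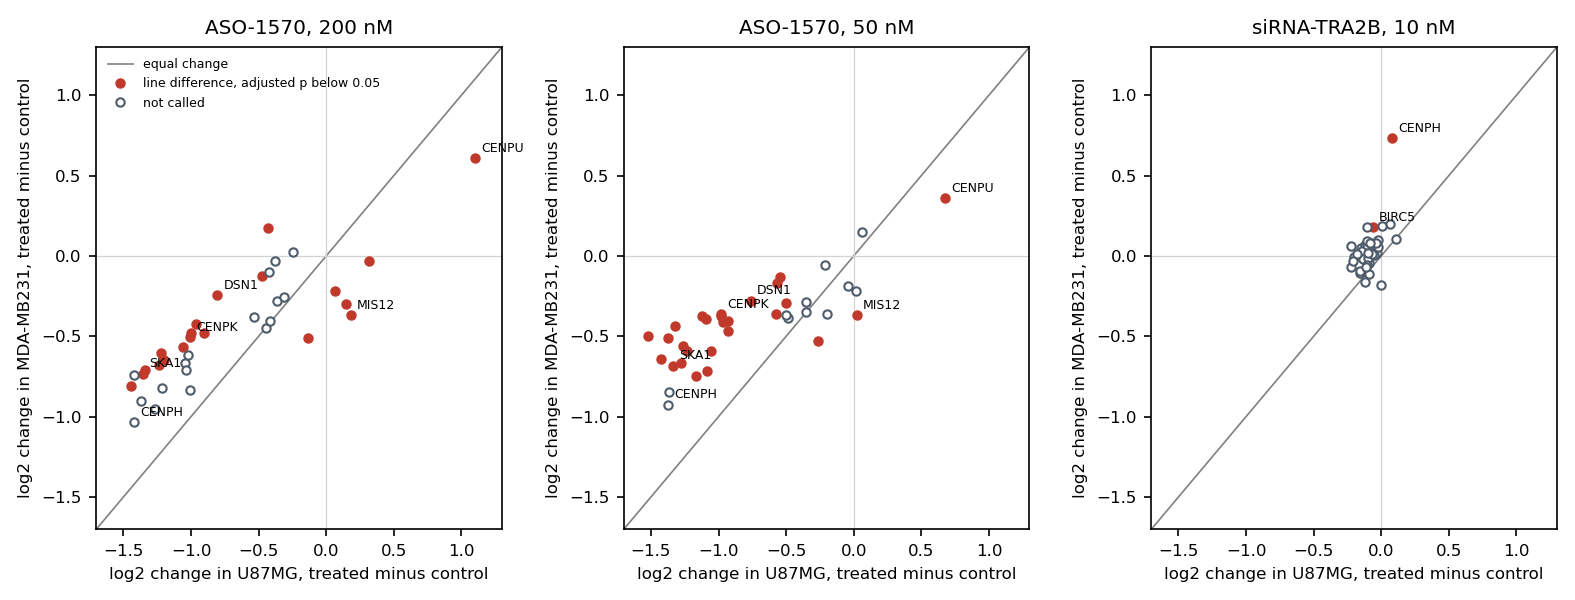
Log2 change in MDA-MB231 cells (vertical axes) against that in U87MG cells (horizontal axes) for the 37 genes at 200 nM, at 50 nM and with siRNA; the line marks equal changes and filled points a line difference with an adjusted p below 0.05. At both doses of ASO-1570 most points lie above the line with both values negative, CENPU and MIS12 lie below it, and the siRNA points gather near 0 except CENPH.

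The siRNA changed few of the 37 genes, while TRA2B itself had log2 changes of -3.11 in MDA-MB231 and -2.83 in U87MG cells. In MDA-MB231 cells 3 genes rose (CENPH, BUB3 and BIRC5) and none fell, against 3.65% rising, 3.6% falling and 7.24% in either direction among all genes. In U87MG cells 5 fell (CENPU, SPDL1, ZWILCH, BUB1 and BUB1B) and none rose, against 2.6% falling, 1.6% rising and 4.2% in either direction. The median log2 changes were 0.03 in MDA-MB231 and -0.10 in U87MG cells. An unadjusted p below 0.05 was found for 10 and 18 of the 37 genes, against 4893 and 4198 of all 23141 genes tested. DESeq2 called 6 genes in MDA-MB231 and 7 in U87MG cells. The U87MG count was 3 without siRNA-TRA2B replicate 1 or 3 or siRNA-CTL replicate 1 or 2.

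CENPH, which fell in all 4 oligonucleotide comparisons, measured 14.1, 14.3 and 12.2 CPM in siRNA-TRA2B libraries, against 7.91, 9.11 and 7.43 CPM in siRNA-CTL libraries in MDA-MB231 cells with siRNA, a fold of 1.66 (log2 change 0.73, SE 0.08, adjusted p = 0.000358). The U87MG values were 44.8, 49.3 and 44.9 CPM in siRNA-TRA2B libraries, against 43.7, 43.4 and 44.8 CPM in siRNA-CTL libraries (log2 change 0.08, SE 0.08, adjusted p = 0.692). All siRNA-TRA2B libraries lay above the controls in MDA-MB231 cells, and the U87MG groups lay close together. The difference between the lines was 0.65 (SE 0.11, adjusted p = 0.0347). It was not called in 9 of the 12 fits that left out a library (values from 0.59 to 0.66), the exceptions being those without MDA-MB231 siRNA-TRA2B replicate 3, MDA-MB231 siRNA-CTL replicate 2 or U87MG siRNA-TRA2B replicate 2.

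BIRC5 measured 123, 128 and 124 CPM in siRNA-TRA2B libraries, against 111, 110.2 and 109 CPM in siRNA-CTL libraries in MDA-MB231 cells with siRNA (log2 change 0.18, SE 0.03, adjusted p = 0.00605). In U87MG cells it measured 128, 133 and 124 CPM in siRNA-TRA2B libraries, against 138, 130.1 and 134 CPM in siRNA-CTL libraries (log2 change -0.06, SE 0.03, adjusted p = 0.345). The groups did not overlap in MDA-MB231 cells and overlapped in U87MG cells. Its difference between the lines, 0.24 (SE 0.05, adjusted p = 0.0469), was called in only 1 of the 12 fits that left out a library, the one without U87MG siRNA-TRA2B replicate 2, and in the other 11 it was 0.22 to 0.26. BUB3 measured 222, 234 and 222 CPM in siRNA-TRA2B libraries, against 198, 210.4 and 188 CPM in siRNA-CTL libraries in MDA-MB231 cells (log2 change 0.18, SE 0.05, adjusted p = 0.0357). That call was lost in 5 of the 6 fits that left out a library (log2 changes from 0.14 to 0.20), all but the one without siRNA-CTL replicate 2.

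In U87MG cells with siRNA, BUB1B measured 100.3, 106 and 98.2 CPM in siRNA-TRA2B libraries, against 118, 119 and 114 CPM in siRNA-CTL libraries (log2 change -0.21, SE 0.03, adjusted p = 0.00383). CENPU measured 49.4, 53.0 and 53.6 CPM in siRNA-TRA2B libraries, against 61.7, 60.01 and 60.5 CPM in siRNA-CTL libraries (log2 change -0.22, SE 0.04, adjusted p = 0.00878), so it fell with siRNA and rose with ASO-1570 in the same line. The groups of both genes did not overlap. The log2 change was -0.20 (adjusted p = 0.01) for SPDL1, -0.15 (adjusted p = 0.031) for ZWILCH and -0.18 (adjusted p = 0.0165) for BUB1. The call of ZWILCH was lost in 5 of the 6 fits that left out a library (from -0.17 to -0.13), all but the one without siRNA-TRA2B replicate 2. Oligonucleotide and siRNA libraries come from separate experiments, and the difference between them was not tested.

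Genes of the same pathway outside the 37 were counted in lists, to be read against the shares of all genes that fell and rose: 13.6% and 11.7% in MDA-MB231 and 23.9% and 25.8% in U87MG cells at 200 nM, and 13.2% and 10.1% in MDA-MB231 and 26.7% and 27.9% in U87MG cells at 50 nM. Of 30 other kinetochore and checkpoint genes, 15 fell and 1 rose in MDA-MB231 cells at 200 nM (median log2 change -0.33) and 22 fell and 3 rose in U87MG cells (median -0.76). At 50 nM 16 fell and none rose in MDA-MB231 cells (median -0.28), and 24 fell and 3 rose in U87MG cells (median -0.72). SGO2, a guardian of centromeric cohesion, had log2 changes of -0.81 in MDA-MB231 and -1.10 in U87MG cells at 200 nM. HJURP, the chaperone of CENP-A, had -0.72 and -1.41, and NUF2, the partner of NDC80, -0.52 and -1.14. MAD2L1BP, which turns off MAD2L1, rose in MDA-MB231 cells at 200 nM (0.29) and in U87MG cells at both doses (0.53 and 0.47). With siRNA 3 of the 30 rose and 2 fell in MDA-MB231 cells (median -0.02). In U87MG cells 9 fell and none rose (median -0.13), among them KNTC1 of the RZZ complex, with -0.47 (adjusted p = 0.000541).

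A list of 13 genes held replication licensing and other replication genes, such as CDC45 and PCNA, which act in G1 and S phase. Of these, 7 fell in MDA-MB231 and all 13 in U87MG cells at 200 nM (median log2 changes -0.24 and -0.72). At 50 nM 9 fell in MDA-MB231 and all 13 in U87MG cells (medians -0.30 and -0.71). MCM3, a subunit of the replicative helicase, had log2 changes of -0.27 in MDA-MB231 and -0.91 in U87MG cells at 200 nM. With siRNA none fell in MDA-MB231 and 2 fell in U87MG cells (medians 0.12 and -0.08).

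Of 18 regulators of cell cycle transcription, 8 fell and none rose in MDA-MB231 cells at 200 nM (median -0.35) and 11 fell and 5 rose in U87MG cells (median -0.57). At 50 nM 8 fell and 1 rose in MDA-MB231 cells (median -0.22) and 13 fell and 5 rose in U87MG cells (median -0.59). The 5 of 18 that rose in U87MG cells are a share near that of all genes at both doses. CDKN1A, an inhibitor of cyclin-dependent kinases, had log2 changes of -0.27 (adjusted p = 0.0662) at 200 nM and -0.21 (adjusted p = 0.309) at 50 nM in MDA-MB231 cells. In U87MG cells it rose at 200 nM, by 1.88 (adjusted p = 2.29e-07), and at 50 nM, by 1.88 (adjusted p = 1.49e-06). FOXM1, an activator of mitotic genes, fell in both lines, with -0.50 in MDA-MB231 and -0.66 in U87MG cells at 200 nM. MYBL2, which joins the MuvB complex in dividing cells, was not called in MDA-MB231 cells (-0.26) and fell in U87MG cells (-1.22). With siRNA 4 of the 18 rose in MDA-MB231 cells and 2 fell in U87MG cells (medians 0.09 and -0.00). In the tumours none of these 3 lists had a called gene, and their medians were -0.14, -0.23 and -0.08.

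Splicing was measured as the percent spliced in (PSI), given as a fraction from 0 to 1 of transcripts that include a segment; its read depth is unknown. A call needed an adjusted p below 0.05 in limma over all events tested and a difference of at least 0.10. In MDA-MB231 cells at 200 nM 2 of 219 events of the 37 genes (0.913%) were called, both lower with ASO-1570, against 1.42% of all events (0.394% higher and 1.03% lower). In U87MG cells at 200 nM 33 of 250 (13.2%) were called, in 13 genes, against 19.6% (5.47% higher and 14.1% lower). At 50 nM in U87MG cells 11 of 228 (4.82%) were called, in 5 genes, against 13.8% (3.84% higher and 9.95% lower). These shares lie below those of all events, so the counts are not a result about these genes as a group, and single events are described instead. Leaving out 1 library moved the counts further. The U87MG count at 200 nM was 21 without ASO-CTL replicate 3. That at 50 nM was 5, 6 and 20 without ASO-1570 replicate 1, 2 and 3 and 3, 2 and 3 without ASO-CTL replicate 1, 2 and 3. The MDA-MB231 count was 0 without any 1 library other than ASO-1570 replicate 3.

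No event of the 37 genes was called by limma in MDA-MB231 cells at 50 nM (188 tested, 20 with an unadjusted p below 0.05, against 0.194% of all events, 0.0751% higher and 0.119% lower), with siRNA in MDA-MB231 cells (245 tested, 11) or in U87MG cells (209 tested, 14), or in the tumours (196 tested, 12), where no event of any gene was called (0.0% each). How many of all events had an unadjusted p below 0.05 was not counted. Of the 33 events called in U87MG cells at 200 nM, 27 had less and 6 more inclusion with ASO-1570, and 23 were cassette exons. Many events describe one splice choice with different flanking exons, so they are not independent of each other.

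The exons of 5 events that were called in U87MG cells are given because they carry the described splicing changes in 4 of the 6 roles, as coding exons of at least 1 transcript in GENCODE release 29 (GRCh38). Capitals mark AGAA and GAAGAA, letters known from RNA bound by TRA2 proteins, searched on the transcribed strand only; GAAGAA contains AGAA. They are DSN1 chr20:36770873-36770977 (minus strand, 105 bases), SPC24 chr19:11147818-11147894 (minus, 77 bases), CENPC chr4:67539840-67539934 (minus, 95 bases), SPDL1 chr5:169594145-169594294 (plus, 150 bases) and SKA2 chr17:59131281-59131367 (minus, 87 bases).
DSN1: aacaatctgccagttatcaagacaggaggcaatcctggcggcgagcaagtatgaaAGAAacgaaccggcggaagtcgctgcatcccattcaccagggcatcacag
SPC24: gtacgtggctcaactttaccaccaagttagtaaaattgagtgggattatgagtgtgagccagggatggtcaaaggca
CENPC: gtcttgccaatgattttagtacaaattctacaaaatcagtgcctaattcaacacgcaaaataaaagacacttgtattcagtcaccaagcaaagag
SPDL1: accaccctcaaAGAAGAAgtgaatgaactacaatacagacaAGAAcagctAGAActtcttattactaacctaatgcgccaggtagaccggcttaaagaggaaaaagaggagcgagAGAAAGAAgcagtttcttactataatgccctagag
SKA2: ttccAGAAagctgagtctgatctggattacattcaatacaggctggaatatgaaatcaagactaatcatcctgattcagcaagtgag
AGAA was in 3 of the 5 exons and GAAGAA in 1 of 5, and among 93705 internal exons of 77 to 150 bases 58.6% held AGAA and 12.9% held GAAGAA. The 5 exons are a selection by their PSI, so this count is a description only.

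DSN1, of the MIS12 complex, gave 8 of the 33 events in U87MG cells at 200 nM and 6 of the 11 at 50 nM. In MDA-MB231 cells at 200 nM the PSI of its 105-base exon, in frame, was 0.793, 0.720 and 0.756 with ASO-1570, against 0.908, 0.901 and 0.859 with ASO-CTL, and was not called (adjusted p = 0.158). In U87MG cells at 200 nM it was 0.673, 0.648 and 0.606 with ASO-1570, against 0.912, 0.928 and 0.942 with ASO-CTL (difference -0.29, adjusted p = 0.00254). The 50 nM values in U87MG cells were 0.722, 0.687 and 0.766 with ASO-1570, against 0.910, 0.923 and 0.914 with ASO-CTL (difference -0.19, adjusted p = 0.0155). No treated library reached a control library, and the call at 50 nM was lost without any 1 of the 3 ASO-CTL libraries (difference -0.19 each time).

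With siRNA the DSN1 exon had 0.794, 0.841 and 0.774 with siRNA-TRA2B in MDA-MB231 cells, against 0.883, 0.883 and 0.875 with siRNA-CTL (limma adjusted p = 0.78). In U87MG cells it had 0.778, 0.797 and 0.782 with siRNA-TRA2B, against 0.881, 0.945 and 0.941 with siRNA-CTL (adjusted p = 0.619). The siRNA groups did not overlap in either line, but neither difference was called. Longer forms of the same exon, of 152 and 321 bases, had differences of -0.26 and -0.17 in U87MG cells at 200 nM.

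Among the called events, the largest difference was in NSL1, another subunit of the MIS12 complex. In MDA-MB231 cells at 200 nM its 85-base exon, whose length is not a multiple of 3, had a mean PSI of 0.492 with ASO-1570 and 0.237 with ASO-CTL, not called (adjusted p = 0.0936). The U87MG libraries at 200 nM had 0.920, 0.712 and 0.817 with ASO-1570, against 0.376, 0.118 and 0.078 with ASO-CTL (difference 0.63, adjusted p = 0.00752). At 50 nM the U87MG libraries had 0.741, 0.671 and 0.481 with ASO-1570, against 0.241, 0.164 and 0.090 with ASO-CTL (difference 0.47, adjusted p = 0.0145). Every treated U87MG library lay above every control at both doses, and the 50 nM call was lost without ASO-CTL replicate 2 (0.47) or 3 (0.43). With siRNA-TRA2B against siRNA-CTL the mean PSI was 0.686 against 0.530 in MDA-MB231 and 0.931 against 0.543 in U87MG cells. Neither was called (limma adjusted p = 0.78 and 0.669). The siRNA-CTL mean in U87MG cells lay above the ASO-CTL means of 0.191 at 200 nM and 0.165 at 50 nM, so the control level differed between experiments.

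With other flanking exons, the same NSL1 exon in U87MG cells at 200 nM was lower in one event, at 0.299, 0.245 and 0.260 with ASO-1570, against 0.463, 0.345 and 0.405 with ASO-CTL. In another it was higher, at 1, 1 and 1 with ASO-1570, against 0.899, 0.761 and 0.752 with ASO-CTL. The direction therefore differed with the exons it was joined to. Both calls were lost in 5 of 6 fits that left out a library, the first in all but the one without ASO-CTL replicate 2 (differences from -0.15 to -0.11) and the second in all but the one without ASO-CTL replicate 1 (from 0.17 to 0.20). The level of NSL1 was not called in U87MG cells at either dose.

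In SPC24 a 77-base exon had a PSI of 0.136, 0.152 and 0.155 with ASO-1570, against 0.424, 0.733 and 0.698 with ASO-CTL in U87MG cells at 200 nM (difference -0.47, adjusted p = 0.0122). In CENPC a 95-base exon had 0.741, 0.611 and 0.676 with ASO-1570, against 1, 1 and 1 with ASO-CTL (difference -0.32, adjusted p = 0.00344). Neither exon is a multiple of 3 long, and neither pair of groups overlapped. A 71-base exon of CENPC was also lower (difference -0.15). SPDL1 had less inclusion of an in-frame 150-base exon, with 0.843, 0.739 and 0.812 with ASO-1570, against 1, 1 and 0.992 with ASO-CTL (difference -0.20, adjusted p = 0.00758). The groups of SPDL1 did not overlap, and all of these events were called without any single library. SPDL1 exons of 77 and 74 bases, annotated only in transcripts subject to nonsense-mediated decay, were also called lower. Their differences ran from -0.30 to -0.20 and from -0.34 to -0.24 when 1 library was left out.

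SKA2 had less inclusion of an in-frame 87-base exon, with 0.805, 0.756 and 0.832 with ASO-1570, against 0.912, 0.952 and 0.925 with ASO-CTL in U87MG cells at 200 nM (difference -0.13, adjusted p = 0.0211). At 50 nM it had 0.841, 0.788 and 0.859 with ASO-1570, against 0.944, 0.935 and 0.928 with ASO-CTL (difference -0.11, adjusted p = 0.0484). The groups did not overlap. The call at 200 nM was lost without any 1 of the ASO-CTL libraries (differences from -0.14 to -0.12), and that at 50 nM in every fit that left out a library but the one without ASO-1570 replicate 3 (from -0.11 to -0.09). ZWINT, in a choice of splice donor, had 0.646, 0.444 and 0.650 with ASO-1570, against 1, 1 and 1 with ASO-CTL in U87MG cells at 200 nM (difference -0.42, adjusted p = 0.00675).

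An 816-base segment of BIRC5, annotated only in a transcript with a retained intron, was the one event called in both lines. Its PSI was 0.522, 0.554 and 0.475 with ASO-1570, against 0.791, 0.799 and 0.809 with ASO-CTL in MDA-MB231 cells at 200 nM (difference -0.28, adjusted p = 0.0299). In U87MG cells it was 0.708, 0.618 and 0.680 with ASO-1570, against 0.983, 0.923 and 0.979 with ASO-CTL (difference -0.29, adjusted p = 0.00383). Inclusion was lower in every treated library, although the MDA-MB231 call was lost in 5 of the 6 fits that left out a library (differences from -0.30 to -0.28), all but the one without ASO-1570 replicate 3. A retained intron within the same segment was lower in U87MG cells too (difference -0.22).

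A 48-base exon of CENPU had 0.878, 0.872 and 0.893 with ASO-1570, against 1, 1 and 1 with ASO-CTL in MDA-MB231 cells at 200 nM (difference -0.12, adjusted p = 0.0421). This call was also lost in all fits that left out a library but the one without ASO-1570 replicate 3 (from -0.12 to -0.11). In U87MG cells the same exon had 1, 0.875 and 0.876 with ASO-1570, against 0.684, 1 and 0.752 with ASO-CTL, with overlapping groups.

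Other genes with an event called in U87MG cells at 200 nM were CENPP (difference -0.15), CENPT (a retained intron, -0.31), INCENP (-0.10), MIS12 (-0.18) and CENPK (0.17). At 50 nM a 28-base exon of KNL1 had 1, 1 and 0.956 with ASO-1570, against 0.849, 0.837 and 0.891 with ASO-CTL (difference 0.13, adjusted p = 0.0225). A 332-base exon of CENPA, annotated only in a transcript subject to nonsense-mediated decay, had 0.696, 0.666 and 0.682 with ASO-1570, against 0.811, 0.860 and 0.929 with ASO-CTL (difference -0.19, adjusted p = 0.032). The groups of both exons did not overlap. The call of KNL1 was lost without ASO-1570 replicate 1 or 2 or ASO-CTL replicate 1 or 2 (0.12 each), and that of CENPA was lost when any 1 of the 6 libraries was left out (from -0.21 to -0.15). Of the 46 called events over the 3 comparisons, 17 were called under every one of 9 alternatives.

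**Figure D4:**
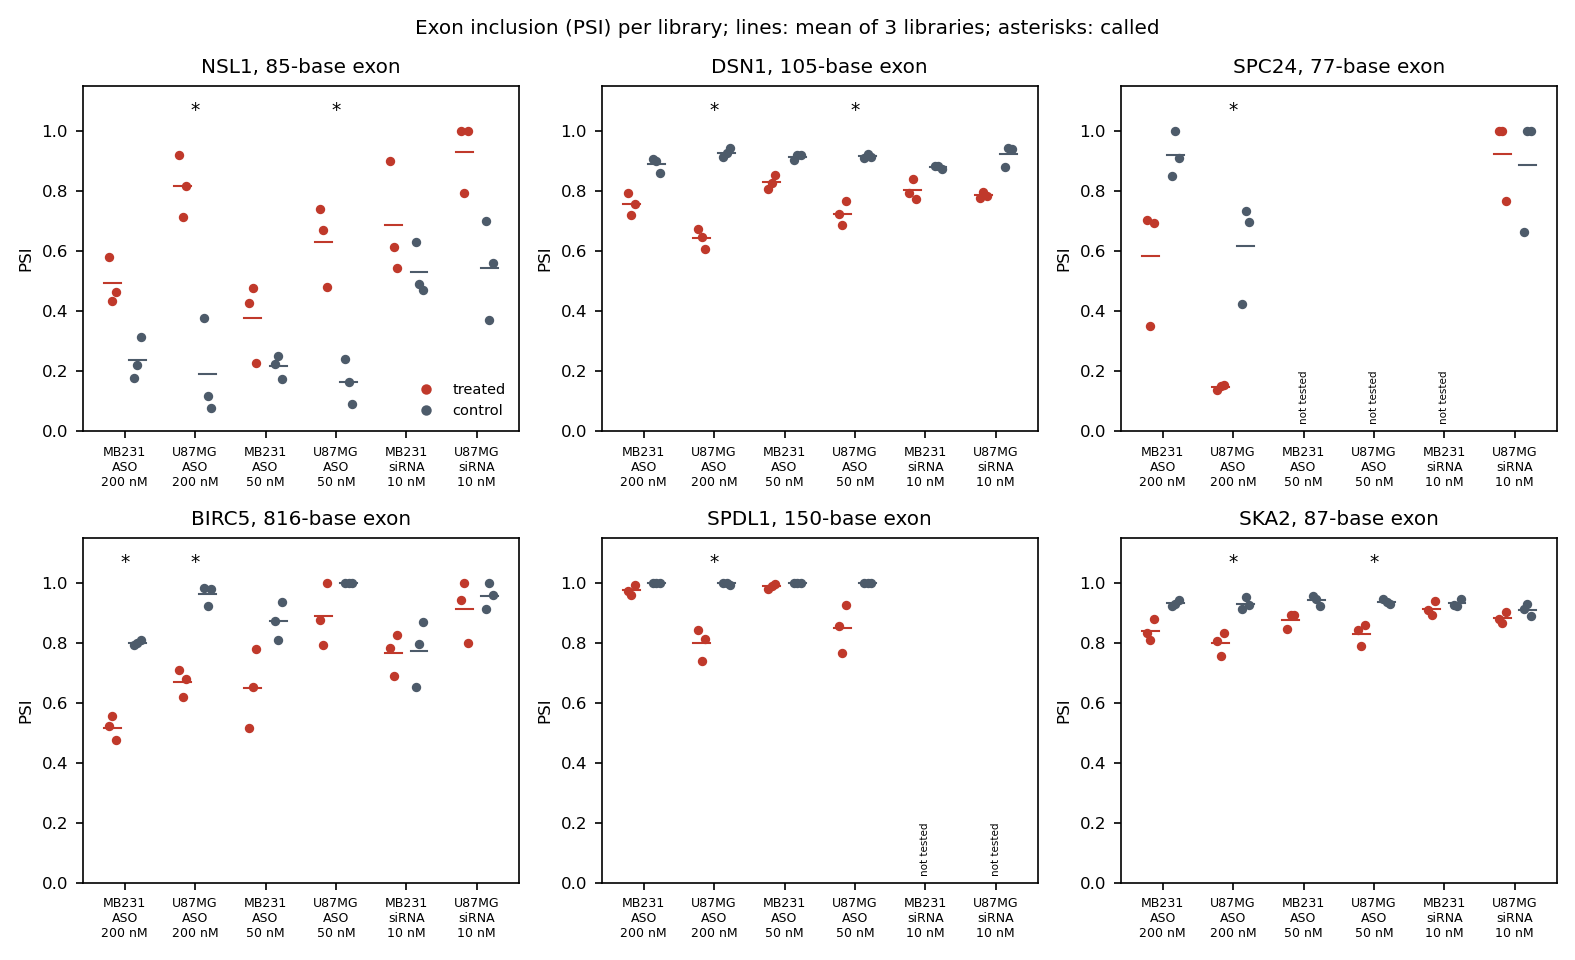
PSI per library (vertical axes) of 6 called exons in the cell line experiments, with treated libraries to the left of their controls; lines are means of 3 and asterisks mark called differences. In U87MG cells at 200 nM the NSL1 exon lies higher and the DSN1, SPC24, BIRC5, SPDL1 and SKA2 exons lie lower with ASO-1570 than with ASO-CTL.

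In the tumours none of the 37 genes was called by edgeR (2 had an unadjusted p below 0.05) and none by DESeq2, where 0.0% of 23812 genes were called and 2053 had an unadjusted p below 0.05. The groups overlapped for every one of the 37 genes. The median log2 change was -0.26, against 0.01 over all genes, and by role it was -0.77 for the checkpoint, -0.36 each for the corona and the SKA complex, -0.25 for the inner and -0.06 for the outer kinetochore, and 0.11 for the passenger complex. The share of counts from mitochondrial genes ranged widely, with 22.8%, 38.1%, 64.2%, 75.3% and 64.3% in ASO-1570 tumours, against 17.7%, 38.0%, 29.8%, 26.8% and 53.9% in ASO-CTL tumours, while in the cell lines it was 1.73 to 3.16%. It averaged 52.9 ± 21.7% with ASO-1570 and 33.2 ± 13.7% with ASO-CTL (SD, n = 5 each), with an exact two-sided permutation p of 0.111, the smallest possible being 0.00794.

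TTK measured 23.4, 11.9, 6.76, 3.58 and 7.503 CPM in ASO-1570 tumours, against 28.1, 19.7, 18.6, 24.9 and 10.0 CPM in ASO-CTL tumours (log2 change -0.93, SE 0.45, adjusted p = 0.487). BUB3 measured 63.4, 38.6, 16.2, 10.9 and 18.9 CPM in ASO-1570 tumours, against 75.8, 46.8, 54.3, 53.4 and 22.3 CPM in ASO-CTL tumours (log2 change -0.77, SE 0.47, adjusted p = 0.491). MAD2L1 measured 9.39, 2.32, 1.84, 2.07 and 2.38 CPM in ASO-1570 tumours, against 11.9, 8.19, 4.76, 7.71 and 2.59 CPM in ASO-CTL tumours (log2 change -0.96, SE 0.53, adjusted p = 0.487). In all 3 genes the first ASO-1570 tumour, which had the lowest mitochondrial share of its group, had the highest value of its group, and the groups overlapped. SPC24 and CENPL stood the other way. SPC24 measured 9.24, 18.1, 17.2, 17.8 and 21.8 CPM in ASO-1570 tumours, against 8.16, 14.6, 8.15, 7.62 and 13.8 CPM in ASO-CTL tumours (log2 change 0.69, SE 0.28, adjusted p = 0.487). CENPL, of the inner kinetochore, measured 14.5, 13.2, 41.1, 36.2 and 29.8 CPM in ASO-1570 tumours, against 15.2, 23.2, 12.6, 15.3 and 25.6 CPM in ASO-CTL tumours (log2 change 0.55, SE 0.35, adjusted p = 0.497), with overlap. CENPU, which rose in the cell lines, measured 17.1, 15.8, 16.3, 12.4 and 24.8 CPM in ASO-1570 tumours, against 17.6, 27.4, 16.0, 22.4 and 21.3 CPM in ASO-CTL tumours (log2 change -0.28, SE 0.22, adjusted p = 0.561).

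The log2 CPM of each of the 37 genes was set against the mitochondrial share over the 10 tumours, 37 relations in all. With p-values from 100000 permutations and Benjamini-Hochberg adjustment over all 23812 genes tested, 16 of the 37 had a negative and 8 a positive Pearson correlation with an adjusted p below 0.05. Of all genes tested, 6903 had a negative and 6294 a positive one, 55.4% in all, so such relations are common in these tumours. BUB3 had r = -0.99 and rho = -0.98 (permutation p = 2e-05 and 5e-05, adjusted 0.000416 and 0.000882), with r = -0.99 without the 2 tumours farthest from the median share. TTK had r = -0.97 and rho = -0.96 (permutation p = 2e-05 and 6e-05, adjusted 0.000416 and 0.000988), with r = -0.95 without those 2 tumours. SPC24 had r = 0.83 and rho = 0.78 (permutation p = 0.00535 and 0.0102, adjusted 0.013 and 0.0249), with r = 0.78 without them, and CENPL had r = 0.89 and rho = 0.72 (permutation p = 0.00123 and 0.0244, adjusted 0.00415 and 0.0492), with r = 0.85 without them. Within the ASO-1570 and the ASO-CTL tumours, r was -0.99 and -0.98 for BUB3, -0.97 and -0.95 for TTK, 0.76 and 0.81 for SPC24 and 0.91 and 0.81 for CENPL. CENPU had r = -0.17 and rho = -0.20 (permutation p = 0.632 and 0.585, adjusted 0.698 and 0.66). The sign of r was the same within both groups for 32 of the 37 genes and without the 2 farthest tumours for 34.

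With the mitochondrial share as a covariate the median log2 change of the 37 genes was -0.05, and without the tumours above 60% (2 ASO-1570 and 5 ASO-CTL tumours kept) it was -0.08. Summed fibroblast markers were 24.0 ± 9.72 CPM with ASO-1570 and 14.2 ± 3.95 CPM with ASO-CTL (SD, n = 5 each, exact permutation p = 0.0714). COL1A1 made up 22.4 and 12.4 CPM of these sums, and COL3A1 and DCN averaged lower with ASO-1570 than with ASO-CTL, each below 1 CPM. Counts of human fibroblast genes likewise do not measure fibroblasts of the mouse host. The part of the mitochondrial share and of these markers in the tumour values was not tested further.

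**Figure D5:**
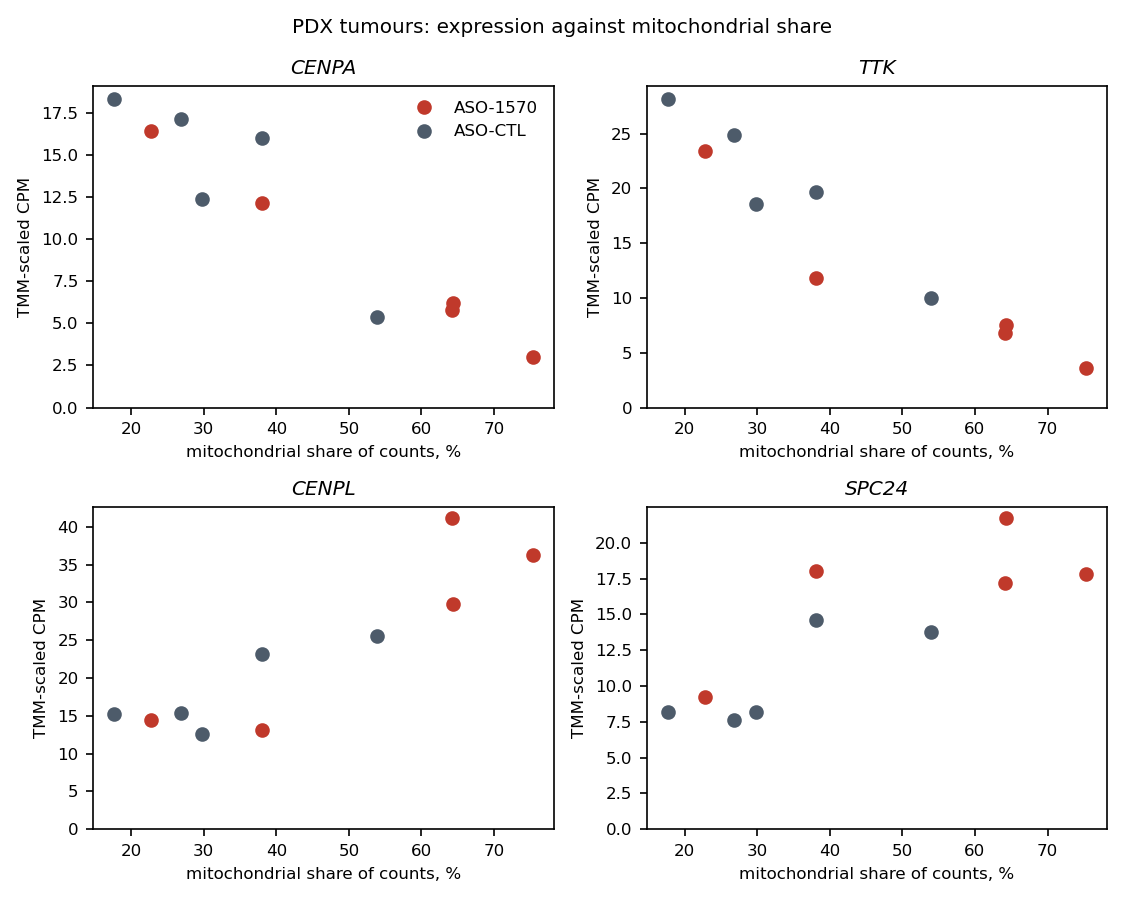
TMM-scaled CPM of CENPA, TTK, CENPL and SPC24 (vertical axes) against the mitochondrial share of counts in percent (horizontal axes) in the 5 ASO-1570 and 5 ASO-CTL tumours, one point per tumour. CENPA and TTK are lower and CENPL and SPC24 are higher in tumours with a larger share, and 3 ASO-1570 tumours lie above 60%.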

How the data were processed

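RNA-seq libraries (Illumina stranded mRNA kit, paired reads of 151 bases, per the labels) were analysed from 4 deposited tables of raw counts per gene, 1 per experiment, and 4 deposited tables of PSI as a fraction per splicing event. FastQC, MultiQC, Trimmomatic, STAR and StringTie with GRCh38 are named by the submitters' processing notes, without versions; the strand setting and the splicing options are not given in the sources used here. A further 2 deposited copies of the 200 nM tables were left out.

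Counts were filtered (filterByExpr), scaled by TMM and fitted per experiment with edgeR 4.0.16 (quasi-likelihood, all groups in one fit, R 4.3.3). SEs were derived from the F statistic. PSI was tested with limma 3.58.1 for each comparison. An event was kept if no library of the groups compared lacked a value and its highest and lowest PSI among them differed by 0.05 or more. DESeq2 1.42.0, other scalings and filters, a replicate block and leaving out each library were alternatives, and leaving out tumours above 60% mitochondrial counts was added after seeing the data. Correlations used log2(CPM + 0.1). The tests were checked on simulated data. Symbols came from GENCODE release 29, matching 60295 of 60668 identifiers, and promoters from RefSeq (GRCh38.p14). No 2 libraries of a group agreed within sampling noise. Members that overlap other genes may share reads with them, and some overlaps and 1 exon sequence are not reported here.

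Genes given per library were, in each role, the pair with the largest and the one with the smallest absolute value of the mean log2 change over the cell lines, those called in opposite directions, and the 3 with the smallest p per line difference. The 37 genes and all lists were chosen with earlier results of these data known.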

Additional observations from a re-analysis of the deposited data

Results flagged for a closer look

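In the tumours, 5 of 76 groups of values held a tumour far from the other 4 of its group, where chance alone flags about 1 in 20. In ASO-1570 tumours these were CENPC at 7.30 CPM, SPC25 at 10.1 CPM and MAD2L1 at 9.39 CPM. In ASO-CTL tumours they were CENPI at 9.29 CPM and KNL1 at 13.3 CPM.

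The log2 change in MDA-MB231 cells minus that in U87MG cells passed the test of the difference for these genes. At 200 nM it was -0.55 for MIS12, 0.56 for DSN1 and 0.62 for SKA1. At 50 nM it was 0.40 for CENPN, 0.62 for CENPK and 0.66 for SKA1. With siRNA it was 0.65 for CENPH and 0.24 for BIRC5.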

How the results depend on the processing

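At gene level, the counts of the 37 genes called stayed within 1.5 times those reported in the 4 oligonucleotide cell line comparisons under every alternative run. With siRNA in MDA-MB231 cells, DESeq2 called 6 (5 higher, 1 lower) and no filter on low counts left 1, and in U87MG cells no filter left 3. The siRNA line difference was called for 5 genes with DESeq2, 1 with RLE scaling, 0 without the filter and 1 with a replicate block. Upper-quartile scaling moved the median of all genes by up to 0.205 (U87MG, 200 nM); the 37 genes then had a median of -0.78 there and -0.79 in U87MG cells at 50 nM. Called values of the named genes never changed sign, and 145 of 1536 called values lost their call; the cause was not tested.

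In the cell lines replicate numbers did not pair the samples, since same-numbered libraries had correlations of their deviations from -0.088 to 0.120. In the tumours these correlations ran from -0.209 to 0.774, against -0.786 to 0.596 for differently numbered tumours. Both ranges are wide, so they do not settle whether tumours were paired. With a replicate block, called splicing events of the 37 genes numbered 0 in MDA-MB231 and 19 (2 higher, 17 lower) in U87MG cells at 200 nM and 2 in U87MG cells at 50 nM, with fewer residual degrees of freedom in that fit.

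Leaving out 1 library gave 27 to 31 called genes in MDA-MB231 and 31 to 34 in U87MG cells at 200 nM, 25 to 33 and 31 to 33 in these lines at 50 nM, 2 to 3 and 3 to 5 with siRNA, and 0 in the tumours. Among all genes the calls ranged from 4221 to 7787 and 10891 to 12343 at 200 nM. They ranged from 3696 to 5808 and 11362 to 13865 at 50 nM, and from 796 to 1408 and 476 to 779 with siRNA, in the same order of lines. Line differences ranged from 12 to 26 at 200 nM, 20 to 29 at 50 nM and 0 to 2 with siRNA, where 11 of 12 libraries left out gave 0 or 1. Among all genes they ranged from 4716 to 8082, 5287 to 8512 and 26 to 92, in the same order. Called events ranged from 0 to 3 in MDA-MB231 and 21 to 36 in U87MG cells at 200 nM and 2 to 20 in U87MG cells at 50 nM. Among the events of all genes they ranged from 144 to 2425, 11188 to 16583 and 3567 to 11203, in the same order. PSI has no read depth, so its counting error is unknown, and the lowest count of a member in a library was 84, in an ASO-1570 tumour (MAD2L1).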
